A study of Mus musculus with 12 samples.

Results

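Mucin and goblet cell genes were read in mouse tracheal epithelium grown at an air-liquid interface (ALI), with and without an shRNA against Myb. The set names 10 genes, and every probe whose platform gene symbol is one of them was taken. Of these 10 genes, 9 had a probe on the array and Muc5b had none by its platform symbol. The 9 genes had 15 of the array's 45281 probes. They comprise the membrane mucins Muc1, Muc4, Muc16 and Muc20, the secreted gel-forming mucins Muc5ac and Muc5b, the secreted trefoil peptide Tff2, the endoplasmic reticulum disulfide isomerase Agr2, and the transcription factors Spdef and Creb3l1. A gene was tested when the detection p-value of one of its probes was below 0.01 on 3 or more of the 12 arrays, and 5 of the 9 met this: the 4 membrane mucins and Spdef.

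The cells were primary tracheal epithelial cells of male C57BL/6J mice, cultured on Transwell membranes with air above and medium below. All of them carried a lentiviral shRNA. It was either a scrambled control or one against Myb, a DNA-binding factor of progenitors. RNA was taken on day 3 or day 9 of ALI, so that each shRNA was read at each day with 3 biological replicates, 4 groups in all. Each array reads total RNA of a mixed culture, so fewer cells of a type and less RNA per cell cannot be told apart. The 4 probes of Myb gave 1 detected value among 48, on a day 3 scrambled array, and the arrays therefore give no check of the knockdown.

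Mucins are large proteins covered in O-linked glycans. Membrane mucins stay anchored on the apical surface and the cilia, where their extracellular domains form a brush that shields the cell, while secreted mucins are packed into granules by goblet and club cells and swell into the mucus gel that cilia move. Spdef, an ETS family factor, drives goblet cell differentiation in the mouse airway and acts upstream of many genes of mucin folding and secretion, Agr2 among them.

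The promoters of the 5 detected genes are shown because the shRNA targets a DNA-binding factor and 4 of these genes changed with it. Each sequence, from RefSeq on GRCm38.p6, runs 5′ to 3′ on the gene's own strand from 250 bases before to 50 bases after the start, 300 bases in all. Capitals mark matches to AACNG, the core of the DNA motif known for Myb, or to its reverse complement CNGTT.

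Muc16 (chr9:18674554-18674853, minus strand): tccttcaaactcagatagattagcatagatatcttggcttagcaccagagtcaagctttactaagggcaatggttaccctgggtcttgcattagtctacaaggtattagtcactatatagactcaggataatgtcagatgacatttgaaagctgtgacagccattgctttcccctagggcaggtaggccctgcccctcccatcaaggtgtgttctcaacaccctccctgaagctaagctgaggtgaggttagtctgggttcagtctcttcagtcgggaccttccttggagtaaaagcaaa
Muc20 (chr16:32797386-32797685, minus strand): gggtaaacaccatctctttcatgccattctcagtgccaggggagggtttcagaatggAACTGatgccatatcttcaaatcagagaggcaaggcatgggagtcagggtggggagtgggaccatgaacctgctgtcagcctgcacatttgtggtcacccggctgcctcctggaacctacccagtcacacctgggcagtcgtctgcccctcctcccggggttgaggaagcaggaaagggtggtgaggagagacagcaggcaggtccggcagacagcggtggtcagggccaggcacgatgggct
Muc4 (chr16:32735636-32735935, plus strand): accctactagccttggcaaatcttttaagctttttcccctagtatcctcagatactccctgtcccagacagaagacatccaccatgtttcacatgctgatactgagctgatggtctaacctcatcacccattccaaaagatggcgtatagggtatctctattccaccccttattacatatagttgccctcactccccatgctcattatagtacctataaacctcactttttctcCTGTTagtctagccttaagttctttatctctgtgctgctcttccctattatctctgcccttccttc
Spdef (chr17:27728902-27729201, minus strand): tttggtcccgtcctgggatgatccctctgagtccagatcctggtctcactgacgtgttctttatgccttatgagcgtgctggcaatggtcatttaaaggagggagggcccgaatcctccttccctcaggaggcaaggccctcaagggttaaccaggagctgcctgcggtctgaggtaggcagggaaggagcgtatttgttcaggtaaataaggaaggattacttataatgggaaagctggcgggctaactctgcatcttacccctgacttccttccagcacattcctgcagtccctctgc
Muc1 (chr3:89228806-89229105, plus strand): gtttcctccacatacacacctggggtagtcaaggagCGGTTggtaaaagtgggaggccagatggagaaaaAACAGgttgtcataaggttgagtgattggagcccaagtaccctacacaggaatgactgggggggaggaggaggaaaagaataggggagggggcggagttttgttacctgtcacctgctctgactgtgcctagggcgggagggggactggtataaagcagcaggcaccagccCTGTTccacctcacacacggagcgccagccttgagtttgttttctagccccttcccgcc

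Muc16 and Spdef held 0 matches, Muc20 and Muc4 held 1 each, and Muc1, the detected gene that passed no test on all 12 arrays, held 3. Of 32851 promoters of the same length, 80.3% held at least 1 match and 19.7% held none, with a median of 2.0 per promoter. A match to these letters is a description of the window and not a binding site.

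Levels are log2 intensities after background correction and quantile normalisation. Values are means with SD (n = 3 per group), and differences are log2 values given with their SE. P-values come from limma, are two-sided and were adjusted over 9381 genes (Benjamini-Hochberg) with a threshold of 0.05. The deposited arrays had 13247 to 15100 probes detected each, or 29.3% to 33.3%, and the precision of each value is limited by the 3 arrays of a group. Club cell markers were detected for 12 of 12 genes with a probe in every group, ciliated markers for 9 to 14 of 15 and basal markers for 12 or 13 of 13. Of the leukocyte list 3 of 8 genes were detected in each group, of the fibroblast list 3 or 4 of 10, and of the mesothelial list 4 of 7, while Ptprc, Col1a1 and Calb2 among them were detected on none of the 12 arrays.

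The arrays with replicate number 3 stood apart from the others. Muc1 and Muc4 were highest on number 3 in 4 of 4 groups and Muc16 in 3 of 4. Over all tested genes, 13.3% were highest on number 3 in 4 of 4 groups. The mean deviation of number 3 from the group mean was 0.40 for Muc1, 0.68 for Muc4 and 0.39 for Muc16, against 0.09 for Muc20 and 0.01 for Spdef. The values without these 4 arrays, a choice made after seeing the data, are given beside the results they touch.

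**Figure D1:**
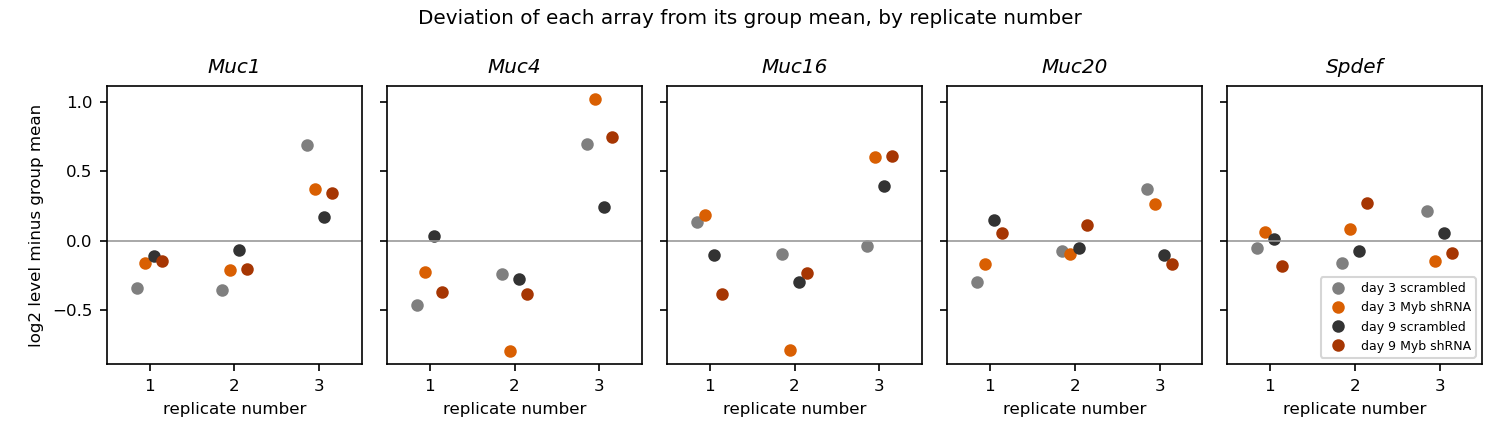
Deviation of each array's log2 level from its group mean for the 5 detected genes, by replicate number, with 1 point per group. Points of number 3 lie above 0 in every group for Muc1 and Muc4, and spread around 0 for Muc20 and Spdef.

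The 4 membrane mucins of the set were detected, Muc1, Muc4 and Muc20 on all 12 arrays and Muc16 on 9. Muc5ac, Tff2, Agr2 and Creb3l1 were detected on 0 of 12 arrays. Spdef was detected on 12 of 12. The members with a probe passed the filter in 55.6%, near the 46.2% of all named genes. The contrast holds for these members alone, and its secreted side rests on 1 mucin, Muc5ac, as Muc5b had no probe by its platform symbol. Of membrane mucins outside the set, Muc13 was detected on 4 arrays, while Muc3 and Muc15 were below detection. The secreted goblet cell products Clca1 and Itln1 passed the filter.

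The undetected genes gave signals at the level of background. Muc5ac, the gel-forming mucin that goblet cells release, had signals of -15.8 to 5.24 on one probe and -11.1 or more on the other. Tff2, a secreted peptide with a trefoil fold, lay between -12.9 and 22.1, and Agr2, which assists mucin folding, between -1.27 and 24.1. Creb3l1, a transcription factor held in the endoplasmic reticulum membrane until it is cleaved, lay at -12.9 or more over its pair of probes. No signal of these 6 probes exceeded 24.1. The lowest signal that counted as detected was 25.4 to 34.4, depending on the array, and 5 of the 72 values of these 6 probes had a detection p-value under 0.05. At this sensitivity these transcripts are not well above background, which does not show that they are absent. Their differences between groups are not given, since each group has only a bound.

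**Figure D2:**
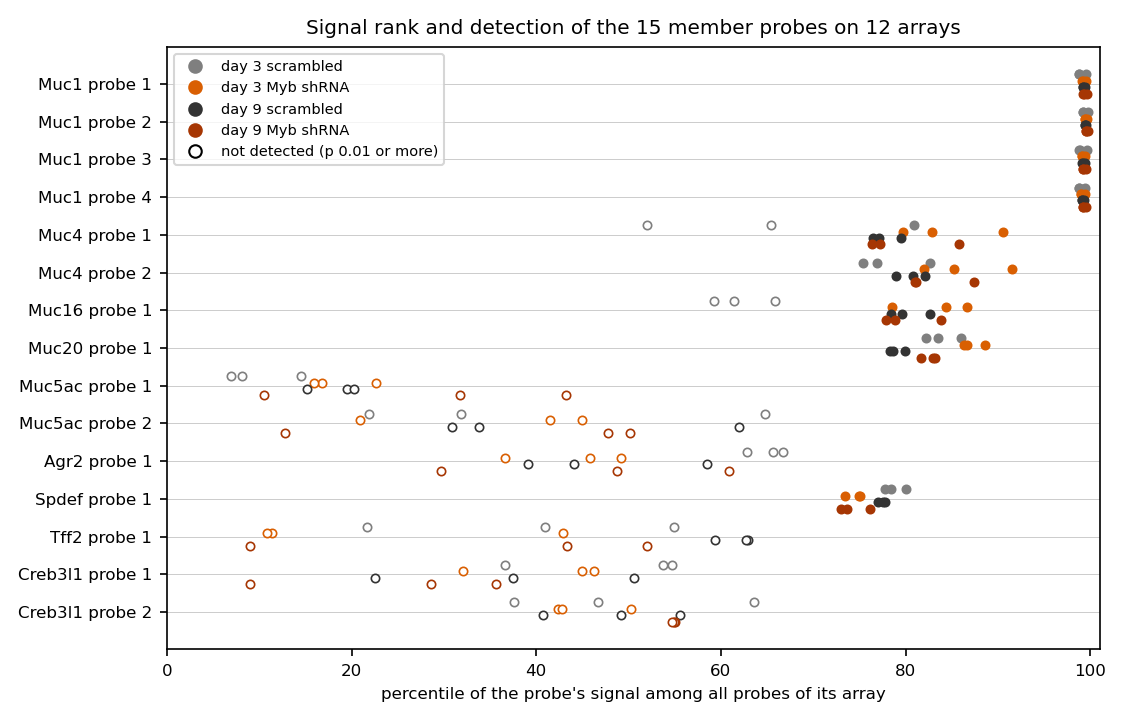
Rank of each member probe's signal among all probes of its array, in percent, for 12 arrays. Filled points were detected (p-value under 0.01) and open points were not, and the colours give the 4 groups. The 6 probes of Muc5ac, Agr2, Tff2 and Creb3l1 are open throughout, and the Muc16 probe is open on the 3 day 3 scrambled arrays.

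The first comparison asks what the Myb shRNA did at day 3. Muc16, Muc4 and Muc20 were higher and Spdef was lower than in scrambled cultures, while Muc1 did not pass the test. Of the 5 tested genes, 4 passed, where 22.7% of all genes passed, 11.5% higher and 11.2% lower. The groups did not overlap for 3 of the 5 genes, and for 36.6% of all genes.

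Muc16, the membrane mucin whose shed part is known in human medicine as CA125, read 5.33, 5.10 and 5.16 on the 3 day 3 scrambled arrays. It read 7.77, 6.80 and 8.18 on the 3 with Myb shRNA. The lowest Myb shRNA array lay above every scrambled array, and the scrambled arrays were not well above background. The difference was 2.39 ± 0.33 (adjusted p = 0.000179). As scrambled arrays give only a bound, this is stated as at least 4.00-fold higher: the mean of the Myb shRNA arrays over the lowest detected level on the scrambled arrays. Each of the 12 fits that left out 1 array kept the call. Without the arrays numbered 3 the difference was 2.07 (adjusted p = 9.34e-06).

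Muc4, a membrane mucin that binds the receptor Erbb2, read 6.31, 6.53 and 7.47 under scrambled shRNA and 7.94, 7.37 and 9.19 under Myb shRNA. The groups overlapped, since the highest scrambled array, number 3, exceeded the lowest Myb shRNA array, number 2. The difference was 1.39 ± 0.43 (adjusted p = 0.0330). Leaving out day 3 Myb shRNA replicate 3 took it to 0.88 (adjusted p = 0.146), and leaving out day 3 scrambled replicate 1 or 2 or day 3 Myb shRNA replicate 1 also ended the call. A second probe of Muc4, undetected on 2 of the 3 scrambled arrays, gave 2.00 ± 0.58 (adjusted p = 0.0280 over all detected probes). Without the arrays numbered 3 the difference was 1.23 (adjusted p = 8.84e-05).

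Muc20, a membrane mucin known from human cells to bind the growth factor receptor Met, read 7.40, 7.62 and 8.07 under scrambled shRNA and 8.12, 8.20 and 8.56 under Myb shRNA. The groups did not overlap, with 8.07 and 8.12 as neighbours. The difference was 0.60 ± 0.18 (adjusted p = 0.0288), or 1.51-fold. The call ended when day 3 scrambled replicate 1 or 2 or day 3 Myb shRNA replicate 3 was left out.

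Muc1, the membrane mucin with a signalling cytoplasmic tail, read 12.67, 12.65 and 13.70 under scrambled shRNA and 12.97, 12.92 and 13.51 under Myb shRNA. Number 3 was high in both groups, and the groups overlapped. The difference was 0.13 ± 0.25 (adjusted p = 0.751), with a 95% interval of -0.41 to 0.66. Without the arrays numbered 3 it was 0.29 (adjusted p = 0.00345), so that the call depends on them. The other 3 probes of Muc1 gave 0.11 to 0.27.

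Spdef read 6.77, 6.66 and 7.04 under scrambled shRNA and 6.24, 6.26 and 6.03 under Myb shRNA. The groups did not overlap. Spdef fell by 0.65 ± 0.16 (adjusted p = 0.00989), 1.57-fold lower, and every fit with 1 array left out kept the call. When arrays were scaled to the same median instead of quantiles, Spdef and Muc4 missed the threshold (adjusted p = 0.0647 and 0.0529). When only the day 3 arrays entered the fit, Muc4 and Muc20 did (0.0672 and 0.0805), as did Muc20 with no detection filter (0.0518).

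**Figure D3:**
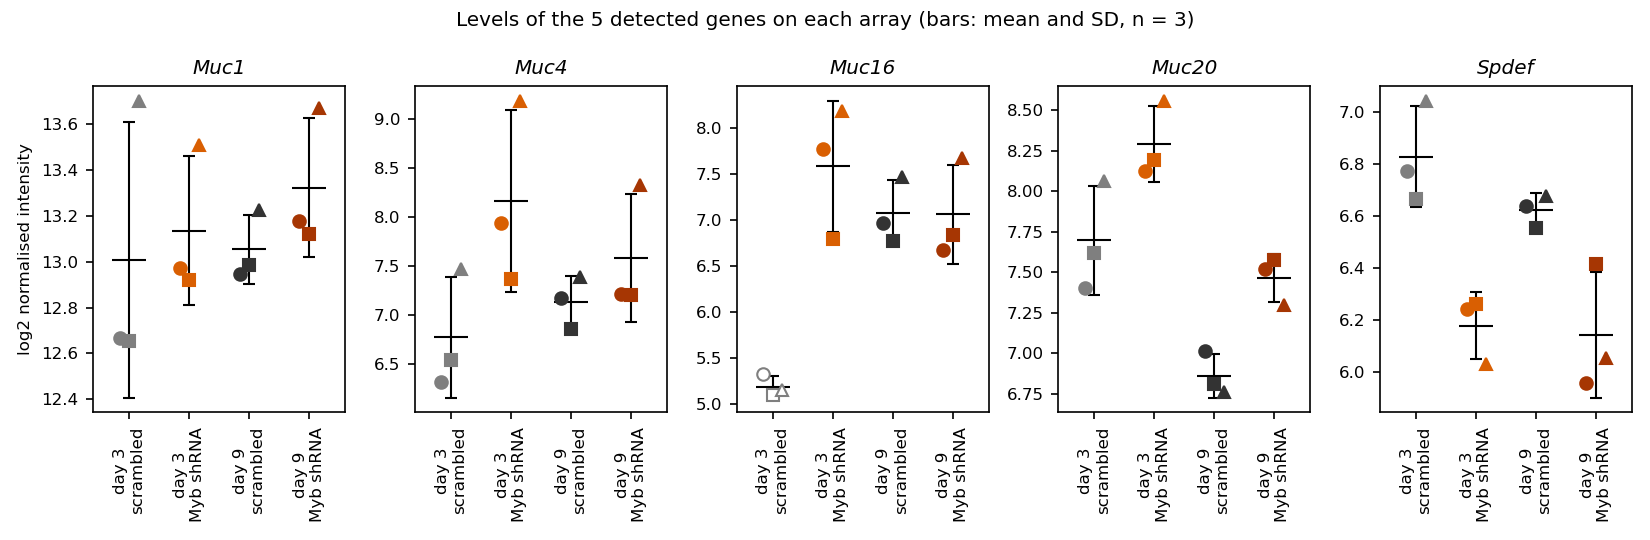
Log2 level on each of the 12 arrays for Muc1, Muc4, Muc16, Muc20 and Spdef, by group. Marker shapes give the replicate number (circle 1, square 2, triangle 3), open markers are values that were not detected, and lines are group means with SD. Muc16 is low and undetected on the 3 day 3 scrambled arrays alone.

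At day 9 the shRNA comparison left fewer members past the test. Muc20 was higher under Myb shRNA, while Muc16, Muc4, Muc1 and Spdef did not pass. This is 1 of 5 genes, where 16.1% of all genes passed, 6.65% higher and 9.48% lower. The groups did not overlap for 2 of the 5 genes, and for 36.7% of all genes.

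Muc20 read 7.01, 6.81 and 6.76 in day 9 scrambled cultures and 7.52, 7.58 and 7.30 with Myb shRNA, and the groups did not overlap. The difference was 0.60 ± 0.18 (adjusted p = 0.0345), or 1.52-fold, of the same size as at day 3. It lost its call in 4 of the 12 fits that left out an array (day 9 scrambled replicates 2 and 3, day 9 Myb shRNA replicates 1 and 2), with adjusted p of 0.101 to 0.122. It lost it also with median scaling (adjusted p = 0.132) and with no detection filter (adjusted p = 0.0624).

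Muc16 read 6.97, 6.78 and 7.47 in day 9 scrambled cultures and 6.68, 6.83 and 7.68 with Myb shRNA. The groups overlapped almost wholly and the difference was -0.01 ± 0.33 (adjusted p = 0.992), with a 95% interval of -0.71 to 0.70. It was -0.12 (adjusted p = 0.770) without the arrays numbered 3. Spdef read 6.64, 6.55 and 6.68 against 5.96, 6.41 and 6.05 with Myb shRNA, and these groups did not overlap. Its difference of -0.48 ± 0.16 missed the threshold (adjusted p = 0.0560) and passed it with the replicate number as a block (adjusted p = 0.0399). It passed also without day 9 Myb shRNA replicate 2 (adjusted p = 0.0308) or day 3 scrambled replicate 3 (adjusted p = 0.0377).

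Muc4 read 7.17, 6.86 and 7.38 in day 9 scrambled cultures and 7.21, 7.20 and 8.33 with Myb shRNA. Only number 3 with Myb shRNA lay above the scrambled range, and the difference was 0.45 ± 0.43 (adjusted p = 0.557), or 0.19 (adjusted p = 0.480) without the arrays numbered 3. Muc1 read 12.95, 12.99 and 13.22 against 13.18, 13.12 and 13.67, with overlap and a difference of 0.27 ± 0.25 (adjusted p = 0.537), or 0.18 (adjusted p = 0.0578) without them.

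**Figure D4:**
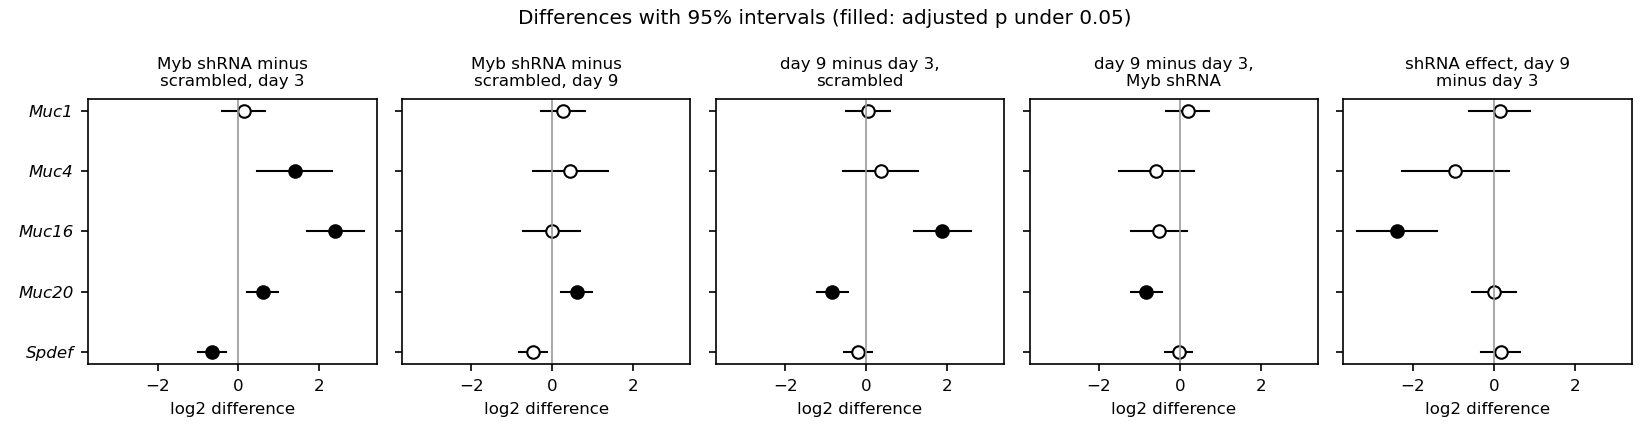
Log2 differences with 95% intervals for the 5 detected genes in the 5 comparisons, with filled points for adjusted p under 0.05. Muc16 stands at 2.39 for the shRNA at day 3 and at -0.01 at day 9, while Muc20 stands at 0.60 in both.

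The interaction asks whether the shRNA difference changed between the days. It passed for Muc16 alone among the 5 genes, where 1.65% of all genes passed, 0.746% higher and 0.906% lower. For Muc16 the shRNA difference at day 9 minus that at day 3 was -2.40 ± 0.46 (adjusted p = 0.0204), or -2.19 (adjusted p = 0.000832) without the arrays numbered 3. It lost its call without day 3 scrambled replicate 2, day 3 Myb shRNA replicate 1, day 9 scrambled replicate 3 or day 9 Myb shRNA replicate 1 or 2, with adjusted p of 0.0524 to 0.0734, and with median scaling (0.0673). Muc4 gave -0.95 ± 0.61 (adjusted p = 0.513), and -1.04 (adjusted p = 0.0153) without the arrays numbered 3. Muc20, with a difference of 0.60 at both days, gave 0.01 ± 0.25 (adjusted p = 0.993), with a 95% interval of -0.54 to 0.55. Spdef gave 0.17 ± 0.22 (adjusted p = 0.768) and Muc1 0.14 ± 0.35 (adjusted p = 0.885), which did not pass.

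The change from day 3 to day 9 was next compared within each shRNA. In scrambled cultures Muc16 rose and Muc20 fell. This is 2 of 5 genes, where 17.1% of all genes passed, 9.55% higher and 7.52% lower. The days did not overlap for 2 of the 5 genes, and for 32.3% of all genes. Muc16 went from a mean of 5.19 ± 0.12, not well above background, to 7.07 ± 0.36, a difference of 1.88 ± 0.33 (adjusted p = 0.00160), stated as at least 2.81-fold higher at day 9. The difference was 1.66 (adjusted p = 7.94e-05) without the arrays numbered 3. Muc20 went from 7.70 ± 0.34 to 6.86 ± 0.13 and fell by 0.84 ± 0.18 (adjusted p = 0.00629), 1.78-fold lower. Both calls held in all 12 fits that left out an array.

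Muc4, Muc1 and Spdef did not pass in scrambled cultures. Muc4 differed by 0.37 ± 0.43 (adjusted p = 0.596), Muc1 by 0.05 ± 0.25 (adjusted p = 0.918) and Spdef by -0.20 ± 0.16 (adjusted p = 0.405). Without the arrays numbered 3 Muc4 gave 0.59 (adjusted p = 0.0184) and Muc1 0.31 (adjusted p = 0.00234).

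With Myb shRNA, 1 of 5 genes passed between the days, where 16.7% of all genes did, 9.26% higher and 7.43% lower. The days did not overlap for 1 of the 5 genes, and for 34.7% of all genes. Muc20 again fell, from 8.29 ± 0.23 to 7.47 ± 0.15, by 0.83 ± 0.18 (adjusted p = 0.00570), 1.78-fold lower. Muc16 went from 7.58 ± 0.71 to 7.06 ± 0.54, which did not pass (-0.52 ± 0.33, adjusted p = 0.337; -0.52, adjusted p = 0.125 without the arrays numbered 3). With array weights it passed (-0.76, adjusted p = 0.0130). Muc4 went from 8.16 ± 0.93 to 7.58 ± 0.65 (-0.58 ± 0.43, adjusted p = 0.427), and passed with the replicate number as a block (adjusted p = 0.0468). It was -0.45 (adjusted p = 0.0853) without the arrays numbered 3. Spdef stood at 6.18 ± 0.13 and 6.14 ± 0.24, and its difference was -0.04 ± 0.16 (adjusted p = 0.919). Muc1 differed by 0.19 ± 0.25 (adjusted p = 0.691), and by 0.20 (adjusted p = 0.0361) without the arrays numbered 3. Comparisons that share a group, such as the shRNA effect at day 3 and the day effect in scrambled cultures, share its arrays.

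The levels of the 5 genes over the 12 arrays were set beside each other as a description. The correlation of Muc1 with Muc4 was 0.72, and 0.88 after group means were removed, with number 3 high for both. Muc4 and Muc16 correlated at 0.76 (0.78 within groups), and Muc16 and Spdef at -0.70 (-0.22 within groups). The genes most alike in pattern were Tead1, Proser1 and Ccnt1 for Muc4 (Pearson r of 0.991, 0.982 and 0.973), and Fcsk, Kank1 and Foxk2 for Muc16 (0.927, 0.925 and 0.925). They were Papss1, Zc3h4 and Nfix for Muc1 (0.951, 0.946 and 0.946), Zbtb8a, Slc25a24 and Cables2 for Muc20 (0.976, 0.966 and 0.964), and Prdx4, Sh3gl2 and Acot7 for Spdef (0.959, 0.951 and 0.925). The 12 arrays share groups and replicate numbers, so these values carry no test.

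Markers of other cell types moved with the shRNA. At day 3, 9 of 13 tested ciliated markers were lower, and their summed signal was 22457 to 31011 in scrambled cultures and 8249 to 10575 with Myb shRNA. Club markers were lower for 8 and higher for 1 of 12 (169822 to 173931 against 141316 to 159049). Basal markers were higher for 6 of 12 (17663 to 21768 against 24005 to 30270) and squamous markers for 3 of 8 (912 to 1479 against 1944 to 2865). The 8 squamous genes had a median difference of 0.16, with a range of -1.29 to 2.47. Over all genes, 11.2% were lower and 11.5% higher at day 3.

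At day 9 the same lists differed again. Ciliated markers were lower for 11 of 13 (40788 to 59804 against 17207 to 25633) and club markers for 6 of 12 (185153 to 220261 against 173633 to 188781). With the replicate number as a block, 7 club markers were lower and 1 higher. Basal markers were higher for 3 of 12, or 6 with the replicate number as a block (13557 to 16247 against 20844 to 22978) and squamous markers for 4 of 8 (317 to 615 against 853 to 2703). Over all genes, 9.48% were lower and 6.65% higher at day 9, or 1184 and 1147 of 9381 with the block. Hydin among ciliated and Sprr1b, Krt6a and Cnfn among squamous markers were undetected in every group. The part of cell makeup in the mucin results was not tested.

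Lists of leukocyte, fibroblast, mesothelial and gland markers were detected in part. Ptprc, Itgam, Itgax, Cd3e and Tyrobp were undetected in every group. The remaining leukocyte genes, Lyz2, Cd68 and Laptm5, summed to 6341 to 9963 in day 3 scrambled cultures and 1552 to 2892 with Myb shRNA, and to 9983 to 13181 and 4028 to 4964 at day 9. Col1a1, Col1a2, Col3a1, Lum, Pdgfra and Pdgfrb were undetected, and the fibroblast list summed to 1116 to 1536 and 3564 to 4423 at day 3 and to 588 to 798 and 956 to 1322 at day 9. Of the mesothelial list Lrrn4, Gpm6a and Calb2 were undetected (15224 to 16982 against 17763 to 22968 at day 3, 10035 to 11336 against 12790 to 13403 at day 9), and of the gland list Prol1 and Dcpp1 to Dcpp3 (48843 to 56750 against 40328 to 53234, and 53341 to 59542 against 42999 to 48771). By gene, 1 of 4 tested fibroblast genes was higher and 0 lower at each day, with medians of 0.52 and -0.45. With the block 2 were higher at day 3, and 1 higher and 2 lower at day 9. Gland genes were lower for 2 of 3 at each day (medians -1.59 and -0.99), and leukocyte genes for 2 and 1 of 3 (-0.60 and -0.24). Mesothelial genes were higher for 1 and 3 of 4 (0.36 and 0.35), or 2 and 3 with the block. The part of these lists in the mucin results was not tested.

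Other genes of the mucin pathway were read by lists. Each count is given with the list's median difference, where the median over all 9381 genes was 0.00 for the shRNA at day 3 and 0.05 at day 9. Counts without a block are to be read against the shares of all genes that passed. These were 11.5% higher and 11.2% lower at day 3, and 6.65% and 9.48% at day 9. From day 3 to day 9, scrambled cultures had 9.55% of genes higher and 7.52% lower. Cultures with Myb shRNA had 9.26% higher and 7.43% lower. Blocked counts (the replicate number as a block) follow where they differ by over 1.5 times. Their comparison is with the blocked counts of all 9381 genes. At day 3 these were 1775 higher and 1625 lower, and at day 9 1147 and 1184. Between the days, 1340 were higher and 1477 lower under scrambled shRNA. Under Myb shRNA, 1249 were higher and 1118 lower.

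Secretory and goblet cell products had 8 of 15 genes tested. At day 9 with Myb shRNA, 4 were lower and 0 higher, with a median of -1.21. It was -0.99 with the 1 gene undetected in a whole group at its bound. Gp2 and Itln1 entered both medians at their fitted differences. Gp2, a glycoprotein with a membrane anchor, went from 7.69 ± 0.61 to 5.51 ± 0.13 (-2.18, adjusted p = 0.000363). Itln1, a lectin of goblet cells, went from 7.13 ± 0.40 to 5.27 ± 0.20. Both had a detected value on 1 of the 3 Myb shRNA arrays only. The Itln1 mean with Myb shRNA lay below the lowest level that counted as detected on those arrays (5.67, 5.56 and 5.43). Itln1 was also undetected with Myb shRNA at day 3. As it passed the filter only with its scrambled arrays, no test of its shRNA difference is given.

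Agr3, a relative of Agr2 in the same isomerase family, also fell, by 1.35 (adjusted p = 0.00168). Scin, an actin-severing protein counted among the 4 lower, was undetected on the Myb shRNA arrays of both days. As it passed the filter through the scrambled arrays alone, no test of it is given. The counts and medians of this list include Scin and Itln1. Clca1, a secreted goblet cell protein, gave 0.01 (adjusted p = 0.985). At day 3, 3 were lower and 0 higher (median -0.55, or -0.17 with undetected genes at their bound). Besides Scin these were Itln1, at least 1.22-fold, and Agr3, at least 1.04-fold lower. In scrambled cultures Agr3, Itln1 and Clca1 rose from day 3 to day 9, by 1.68, 1.35 and 0.81, and 0 fell. With Myb shRNA, Agr3 rose at least 1.30-fold, and Gp2 fell by 2.16 to a level detected on 1 of 3 arrays. With the block 4 were lower and 1 higher at day 3, and 5 were lower and 1 higher at day 9. Between days 5 then rose and 1 fell in scrambled cultures, and 2 rose and 2 fell with Myb shRNA.

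Regulators of goblet cells had 15 of 20 genes tested. At day 3 with Myb shRNA 4 were higher and 1 lower (median 0.11). Klf4, a factor of epithelial differentiation, was undetected on the day 3 scrambled arrays and at least 2.20-fold higher with Myb shRNA (adjusted p = 0.000165). Egfr, the receptor that drives mucin genes in human airway cells, differed by 1.20 (adjusted p = 4.27e-05), Ets1 by 1.12 and Creb3l2, a relative of Creb3l1, by 0.86. Xbp1, a factor of the unfolded protein response, went from 12.41 ± 0.31 to 11.61 ± 0.20 (-0.80, adjusted p = 0.00136).

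At day 9, Ets1 (0.69) and Klf4 (0.61) were higher and Xbp1 (-0.50, adjusted p = 0.0297) was lower, with a list median of 0.18. With the block 4 were higher and 2 lower at day 9, and between the days 1 rose and 5 fell with Myb shRNA. Between the days 0 of 15 passed in scrambled cultures (1 rose with the block), and 5 fell with Myb shRNA, Egfr by 0.98, Klf4 by 0.80, Creb3l2 by 0.69, Ets1 by 0.55 and Stat6 by 0.47. The interaction of Egfr passed (-0.84, adjusted p = 0.0481).

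Enzymes of O-glycosylation, which build mucin glycans, had 11 of 23 genes tested. With Myb shRNA 2 were higher and 3 lower at day 3 (median 0.18), and 2 were higher and 2 lower at day 9 (median -0.07). Gcnt1, which makes core 2 branches, was lower at both days (-1.47 and -1.39, adjusted p = 0.00211 and 0.00394). St6galnac2, a sialyltransferase, was higher at both (0.72 and 0.93, adjusted p = 0.00316 and 0.000722). Galnt1, which starts O-glycans, was lower at day 3 (-0.60, adjusted p = 0.0130), and Gcnt3, a branching enzyme of mucin glycans, was higher (0.81, adjusted p = 0.0155). St3gal1 was at least 1.43-fold lower at day 3, and at day 9 B3gnt3 was higher (0.47) and the chaperone C1galt1c1 lower (-0.50). From day 3 to day 9 1 gene fell in scrambled cultures (St6galnac2, by 0.55) and 2 with Myb shRNA (C1galt1 by 0.59, Galnt10 by 0.46). With the block 2 were higher and 4 lower at day 9. Between the days 2 then fell in scrambled cultures, and 4 fell and 1 rose with Myb shRNA.

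Genes of granule exocytosis had 12 of 14 tested, 2 of them higher and 0 lower with Myb shRNA at each day (medians 0.32 and 0.29, or 0.27 and 0.22 with undetected genes at their bound). At day 3 these were the priming factors Unc13d (1.27, adjusted p = 0.000628) and Unc13b (0.61, adjusted p = 0.00282). At day 9 they were the SNARE protein Vamp8 and the chaperone Dnajc5 (0.44 each, adjusted p = 0.0150 and 0.0255). From day 3 to day 9 Snap23 fell in scrambled cultures (by 0.53), and Snap23, Marcks, Unc13d and Unc13b fell with Myb shRNA (by 0.66, 0.80, 0.76 and 0.44). With the block 4 were higher and 1 lower at day 3, and 3 higher and 2 lower at day 9.

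Chaperones of the endoplasmic reticulum had 13 of 15 tested. With Myb shRNA Pdia3 (0.30, adjusted p = 0.0180) and Hsp90b1 (0.37, adjusted p = 0.0336) were higher at day 3 (median -0.05), and 0 passed at day 9 (median 0.05). With the block 2 were higher and 3 lower at day 3. Herpud1 and Dnajc3 rose from day 3 to day 9 under both shRNAs, Herpud1 by 0.72 and 0.93 and Dnajc3 by 0.45 and 0.38.

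Proteins that bind membrane mucins had 7 of 10 tested. Msn, which links membrane proteins to actin, was higher with Myb shRNA at both days (1.27 ± 0.20 at day 3, 1.28 ± 0.20 at day 9). At day 9 Msln, the partner that binds Muc16, was higher (0.36, adjusted p = 0.0129) and Lgals3, a galectin that binds glycans of membrane mucins, was lower (-0.28, adjusted p = 0.0311). The list's medians were 0.10 and 0.01, and with the block 3 were higher and 2 lower at day 3. From day 3 to day 9 Msln fell by 0.68 and 0.55 under scrambled and Myb shRNA and Msn by 0.67 under both, while Lgals3 rose by 0.29 in scrambled cultures. With the block 2 rose and 2 fell with Myb shRNA.

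Other mucins had 9 genes listed, 5 with a probe and 1 tested. Muc13, a membrane mucin of the gut, was detected on 1 of 3 day 3 scrambled arrays, 3 of 3 day 9 scrambled arrays and none with Myb shRNA. As it passed the filter through the scrambled arrays alone, no test of it is given. Muc2, Muc3, Muc6 and Muc15 were below detection.

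**Figure D5:**
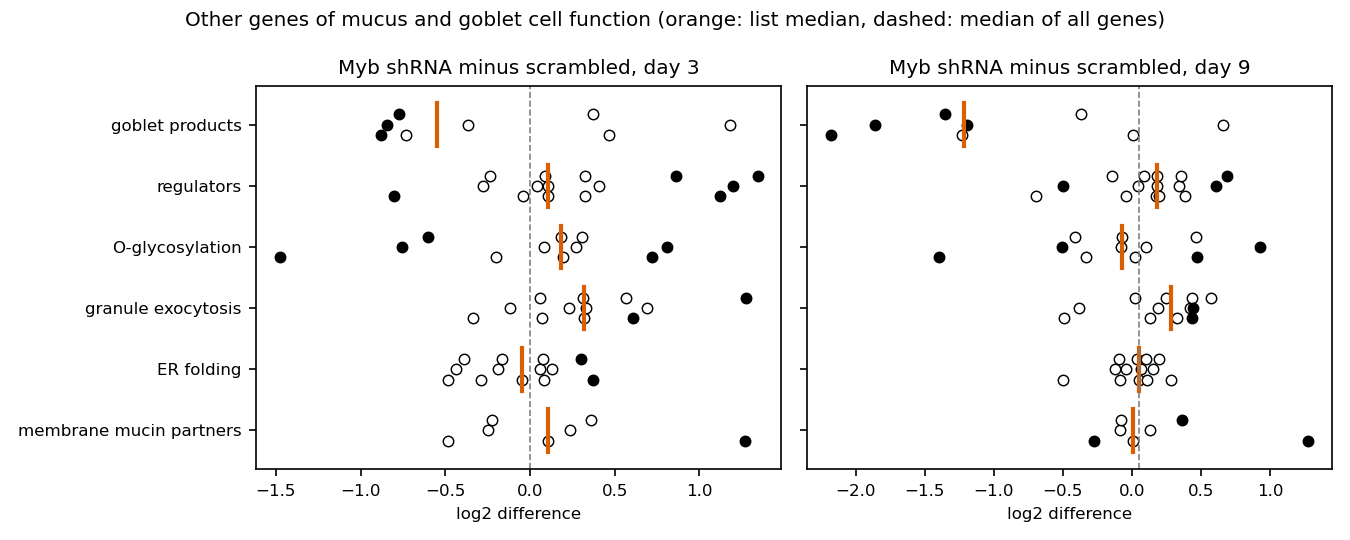
Log2 differences of the tested genes of each list between Myb shRNA and scrambled cultures, with the days in separate panels and 1 point per gene, filled where adjusted p is under 0.05, and the list median as a line. Of the 6 lists drawn, secretory and goblet cell products have the lowest median at day 9, -1.21. It is -0.99 with 1 undetected gene at its bound. The differences of this list at day 9 run from -2.18 to 0.66. Scin and Itln1 of this list passed the filter only with their scrambled arrays.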

How the data were processed

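The 12 samples were read on Illumina bead arrays, 3 per group, with groups and replicate numbers taken from the labels. Per the file headers, the deposited table holds, for 45281 probes, the intensity of the signal and its detection p-value. Between 28.8% and 34.4% of signals per array lie below 0, so a background had been subtracted. A second deposited table holds log2 values from the authors, with medians of about 6.02 and the same rank order as the signal, and its steps are not given in the sources used here. The submitters' processing notes name BeadStudio 3.0 and limma.

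Signals were normalised by limma's neqc (limma 3.58.1, R 4.3.3), which takes negative controls from the detection p-values for background correction, adds an offset (16), equalises quantiles and takes log2. The filter on detection (p-value below 0.01 on 3 or more arrays) left 15526 probes, and the probe with the highest mean stood for each of 9381 genes. Symbols came from the platform annotation, updated through RefSeq. A further probe listed there under the symbol 4933405I11Rik updates to Muc4 and was left out by the rule. The 12 arrays entered 1 linear model of 4 group means (lmFit, then eBayes with a trend), which leaves 8 residual degrees of freedom. It was run on simulated data with independent noise on each array, which cannot check it where arrays share a replicate number. The 10 members, the lists and the rule for named genes (all members, up to 4 genes per list and comparison with the smallest p, and the 3 genes most alike each detected member) were chosen with earlier results of these data known.

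To test whether replicate numbers pair the arrays, deviations from group means were correlated across genes. Same-numbered arrays correlated above 0.1 in each comparison of groups (at least 0.297 at day 9, 0.150 at day 3, 0.267 between days with scrambled and 0.107 with Myb shRNA). This comes from the data, as the labels name no pairing, and it does not hold for the interaction, where 16 of 18 pairs lay above 0.1. The printed values come from the fit without a block. The blocked value is given where it changes a call or moves a count by over 1.5 times.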

Additional observations from a re-analysis of the deposited data

Results flagged for a closer look

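The shRNA difference of Muc16 passed the test of a change between the days in the fit of all 12 arrays. The test of the difference itself gave -2.40 on the log2 scale (day 9 minus day 3, adjusted p = 0.0204), from 2.39 at day 3 and -0.01 at day 9. Muc16 was not well above background on the 3 day 3 scrambled arrays, so the day 3 difference, and with it this value, rests on a fitted level there. The same 3 arrays enter the day effect in scrambled cultures. The interaction lost its call in 5 of the 12 fits that left out 1 array (adjusted p up to 0.0734), and with median scaling (0.0673). The part of the other cell types in the Muc16 difference was not tested.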

How the results depend on the processing

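The number of arrays (3 per group) and background signal for 4 of the 9 members limit these results. Over 25 member results, 240 values under other settings gave 214 with the same direction and side of the threshold, 8 that lost the call, 11 that gained it and 7 that changed sign, none of the last called. The calls of Muc16 at day 3 and between days in scrambled cultures, and of Muc20 between days, held in every setting where they were tested.

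Members called at day 9 (1) were 2 with a replicate block, with the mean of a gene's probes and with array weights, and 0 with median scaling and with no detection filter. At day 3 (4) they were 2 with median scaling and with only the groups compared. Between days in scrambled cultures (2) they were 1 with detection on all 12 arrays, where Muc16 was not tested, and 4 without the arrays numbered 3. With Myb shRNA (1) they were 2 in 3 settings, each adding another gene: Muc4 with a replicate block, Muc16 with array weights and Muc1 without the arrays numbered 3. The interaction (1) gave 0 with median scaling or detection on all 12 arrays, and 2 with weights or no arrays numbered 3. Leaving out 1 array gave 0 to 2 at day 9, 2 to 4 at day 3, 2 to 2 and 1 to 1 between days and 0 to 1 for the interaction. The replicate block changed only the calls of Spdef at day 9 (adjusted p = 0.0399) and Muc4 between days with Myb shRNA (adjusted p = 0.0468).

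Calls lost with median scaling were Muc20 at day 9 (adjusted p = 0.132), Muc4 and Spdef at day 3 (0.0529 and 0.0647) and the interaction of Muc16 (0.0673). Those lost with no filter were Muc20 at day 9 and day 3 (0.0624 and 0.0518), and with only the groups compared Muc20 and Muc4 at day 3 (0.0805 and 0.0672). The sign of uncalled values turned for the interaction of Muc20 (0.01), to -0.042 with the deposited log2 values, -0.036 with an offset of 50, -0.11 with median scaling and -0.012 without the arrays numbered 3. It turned for the interaction of Muc1 (0.14), to -0.093 with array weights and -0.10 without the arrays numbered 3, and for Muc1 between days in scrambled cultures (0.05), to -0.13 with median scaling. Leaving out 1 array took Muc16 at day 9 from -0.32 to 0.19, Muc1 at day 3 from -0.061 to 0.47, Muc1 between days in scrambled cultures from -0.13 to 0.39, Spdef between days with Myb shRNA from -0.17 to 0.057, and the interactions of Muc1 and Muc20 from -0.20 to 0.33 and from -0.18 to 0.15. The causes were not tested.

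Over all genes, the block raised the counts called from 1513, 2134, 1601, 1566 and 155 (day 9, day 3, days in scrambled, days in Myb shRNA, interaction) to 2331, 3400, 2817, 2367 and 715, and array weights to 2616, 4449, 3570, 3455 and 1835. Without the arrays numbered 3 they were 2411, 3602, 3523, 2478 and 1410. Median scaling gave 978 at day 9 and 47 for the interaction, and detection on all 12 arrays 80 for the interaction. Without 1 array the counts ran from 949 to 1900, 1445 to 3023, 811 to 2750, 1039 to 1978 and 52 to 328. Median scaling moved the median of all genes between days to -0.10 and -0.11, and the share of calls that were higher from 56.0% to 45.8% in scrambled and from 55.5% to 42.4% in Myb shRNA cultures.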
